A study of Homo sapiens with 16 samples.

Results

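Chromatin regions that carried an H3K4me3 peak in the breast cancer line MDA-MB-231 and not in the non-tumorigenic breast epithelial line MCF-10A, and that lay on H3K27me3 in MCF-10A, numbered 201 of 17386 merged H3K4me3 regions. They were chosen from deposited ChIP-seq peak lists. Overlapping peaks of the 4 H3K4me3 lists (1 bp or more) on chromosomes 1 to 22 were joined into regions. Such a region was taken when both MDA-MB-231 replicates and neither MCF-10A replicate had an H3K4me3 peak there and when it also overlapped an H3K27me3 peak of both MCF-10A replicates. The rule therefore used the H3K4me3 lists of both lines and the H3K27me3 lists of MCF-10A, and values from those lists are given as a description. Tests of H3K27me3 beside the regions also use those MCF-10A lists and cannot separate the lines from the choice. The H3K27me3 lists of MDA-MB-231 and all H3K9me2 lists were not used by the rule.

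The series holds 16 samples of these established human cell lines. H3K4me3, H3K27me3 and H3K9me2 were each mapped in 2 replicates per line that the labels call biological, and the 4 input samples were not analysed here. The labels give no added treatment or genetic change for either line. Per the labels' protocols, MCF-10A, called luminal ductal cells in the labels, grew in a medium with EGF, insulin, cholera toxin and hydrocortisone. MDA-MB-231, labelled as derived from a metastatic site, grew under its own conditions, so line and medium cannot be told apart. Subconfluent cultures were used, with mouse monoclonal antibodies to H3K4me3 and H3K9me2 and a rabbit polyclonal antibody to H3K27me3. The labelled cell types were not checked against marker genes, and no gene is named or sequence printed, because no annotation or genome of hg19, the build of the lists, was used here.

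H3K4me3 is trimethylation of lysine 4 of histone H3, and it marks the promoters of active genes and of genes poised for activity. H3K27me3, on lysine 27, is written by Polycomb repressive complex 2 and covers silent genes, many of them developmental regulators. In stem cells and in some differentiated cells both marks meet on bivalent promoters, where H3K4me3 is typically narrow and low. H3K9me2, on lysine 9, is a separate mark of silenced chromatin that is often spread over broad domains.

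The lists give peak positions and a score. Read counts are not part of them, and the depth behind each peak is unknown. On chromosomes 1 to 22 the H3K4me3 lists had 15015 and 16174 peaks (MCF-10A) and 16008 and 15642 peaks (MDA-MB-231). For H3K27me3 the numbers were 28393 and 28371 against 8408 and 30238. The first H3K27me3 replicate of MDA-MB-231 stood apart, covering 6.50 Mb against 19.5 to 21.2 Mb in the other 3 lists of the mark. Most results on H3K27me3 in MDA-MB-231 are therefore given per replicate, and those that pool or average the replicates say so. For H3K9me2 the peak numbers were 10418 and 8701 against 6086 and 4980.

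Of the 17386 merged regions, 1085 (6.24%) carried H3K4me3 in both MDA-MB-231 replicates only. H3K27me3 of both MCF-10A replicates was found on 4.22% of all merged regions, and the full rule was met by 1.16%. Among the 1085 regions, 268 overlapped H3K27me3 of MCF-10A replicate 1, where the share over all merged regions was 5.77%, and 237 overlapped that of replicate 2, where it was 5.19%. Overlap with both gave the 201 members. Another 103 overlapped H3K27me3 of 1 MCF-10A replicate, and 781 overlapped none. These 103 and 781 regions together, 884 in all, are called the other MDA-MB-231-only regions below.

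The threshold of 1 bp separated near neighbours. Just inside it, chr14:33407643-33409309 held 96 and 7 bp of H3K27me3 in MCF-10A replicates 1 and 2, chr16:15951725-15952568 held 844 and 25 bp, and chr10:94831557-94832550 held 562 and 45 bp. Just outside, chr11:94276717-94278239 missed a replicate 1 peak by 24 bp while 224 bp of it lay under a replicate 2 peak. The region at chr4:8271602-8272138 held 386 bp of H3K27me3 in replicate 1 and lay 54 bp from the nearest peak of replicate 2. At chr2:170220694-170221714 the nearest peaks were 39 and 54 bp away. Such cases were a minority, since the median member had 76.9% and 81.0% of its length under H3K27me3 in MCF-10A replicates 1 and 2.

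The H3K4me3 of the members in MDA-MB-231 was narrow and low in rank, though less so than in the other MDA-MB-231-only regions. Their merged width had a median of 1092 bp (quartiles 806 and 1457 bp, range 374 to 4052 bp). The other MDA-MB-231-only regions had a median of 856.5 bp (quartiles 669 and 1164.75 bp). Regions with H3K4me3 in all 4 libraries had one of 1771 bp, and the 230 of these that also lay on H3K27me3 of both MCF-10A replicates had one of 1576.5 bp. These shared widths join peaks of both lines, so they are not a like measure. Counted as bases under H3K4me3 peaks of MDA-MB-231 replicates 1 and 2, the 230 had medians of 1369 and 1362.5 bp. The members had 986 and 954 bp. The members were thus 235.5 bp wider at the median than the other MDA-MB-231-only regions. Measured per replicate as bases under H3K4me3 peaks within the region, the difference in medians was 263.5 bp in MDA-MB-231 replicate 1 and 238.0 bp in replicate 2 (SD 18.03, n = 2). The width came from lists that the rule used and carries no test.

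By the authors' score, ranked within each list, the members' highest H3K4me3 peak stood at a median percentile of 25.8 in MDA-MB-231 replicate 1 and 25.1 in replicate 2. No member reached the top 10% of either list, and 178 and 176 of the 201 lay below the list's median. The other MDA-MB-231-only regions had median percentiles of 19.3 and 17.8, and the 230 shared regions on MCF-10A H3K27me3 had 39.3 and 38.5. The members thus lay between both classes in the rank of this mark as well as in its width.

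The H3K27me3 peaks that covered the same places in MCF-10A ranked high in their lists. Their median percentile was 91.2 in replicate 1 and 91.7 in replicate 2, and 106 and 112 of the 201 members held a peak from the top 10% of the list. The widest such peak per member had a median of 1137 and 1132 bp, against 629 and 622 bp over all peaks of these lists. A wide peak is more likely to overlap a region by position alone, so the overlap rule favours it. The 230 shared regions, chosen by the same overlap, had median percentiles of 87.5 and 87.9.

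**Figure D1:**
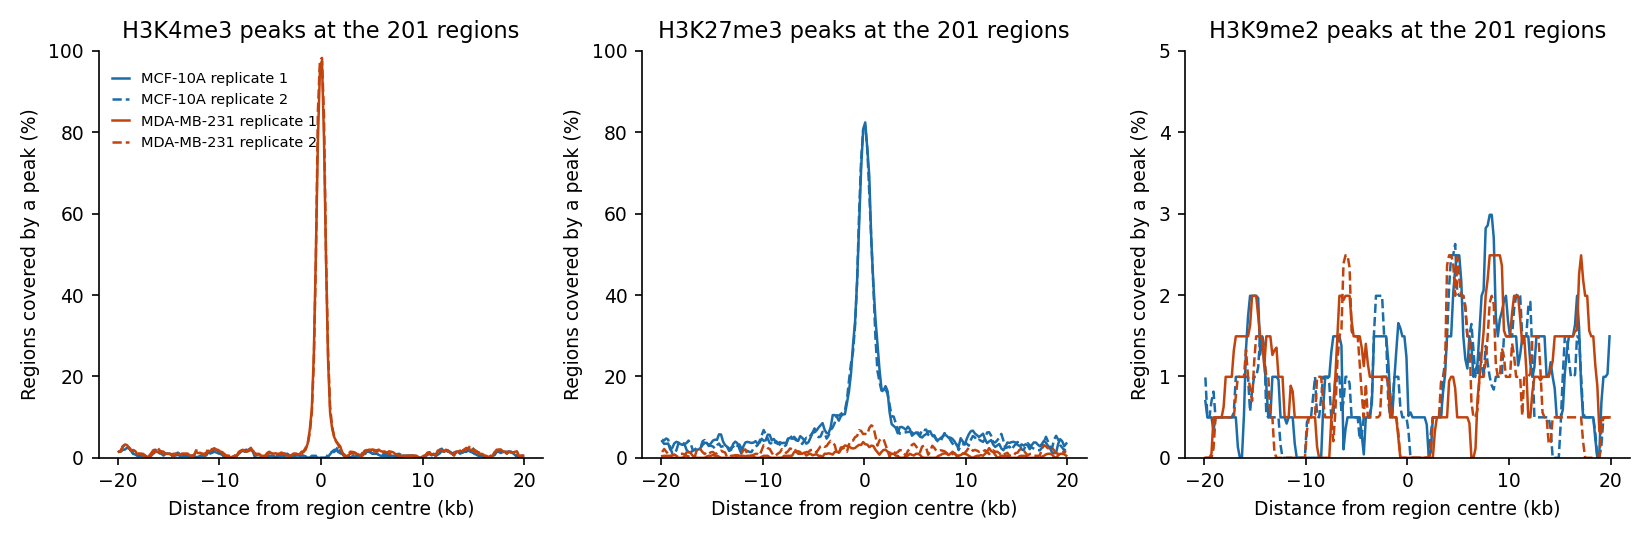
Share of the 201 regions covered by a peak (percent, linear axis) in 200 bp bins by distance from the region centre (kb), for H3K4me3, H3K27me3 and H3K9me2, with 1 line per library, MCF-10A in blue and MDA-MB-231 in red, and the third axis running only to 5%. H3K27me3 of both MCF-10A replicates stands at 81.6% and 81.1% at the centre and that of MDA-MB-231 at 3.61% and 5.87%, and H3K9me2 stays at or below 2.99% at all distances in every library.

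H3K27me3 of MCF-10A was centred on the members. It covered 81.6% and 81.1% of them at the centre in replicates 1 and 2, and the profile stood above 50% of its own maximum from 800 bp before to 1000 bp after the centre, in the direction of the chromosome coordinates. In the 230 shared regions the same mark covered 51.8% and 45.2% at the centre and was highest 500 bp to one side, at 59.2% and 56.8%. H3K27me3 peaks covered the whole region in 41 and 48 of the 201 members, passed 1 edge in 115 and 108, passed both edges with a gap between in 13 and 16, and lay inside the region in 32 and 29. In most members the mark thus ran past the H3K4me3 region of the other line on at least 1 side. Because the rule demanded this overlap, the height at the centre is a description.

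**Figure D2:**
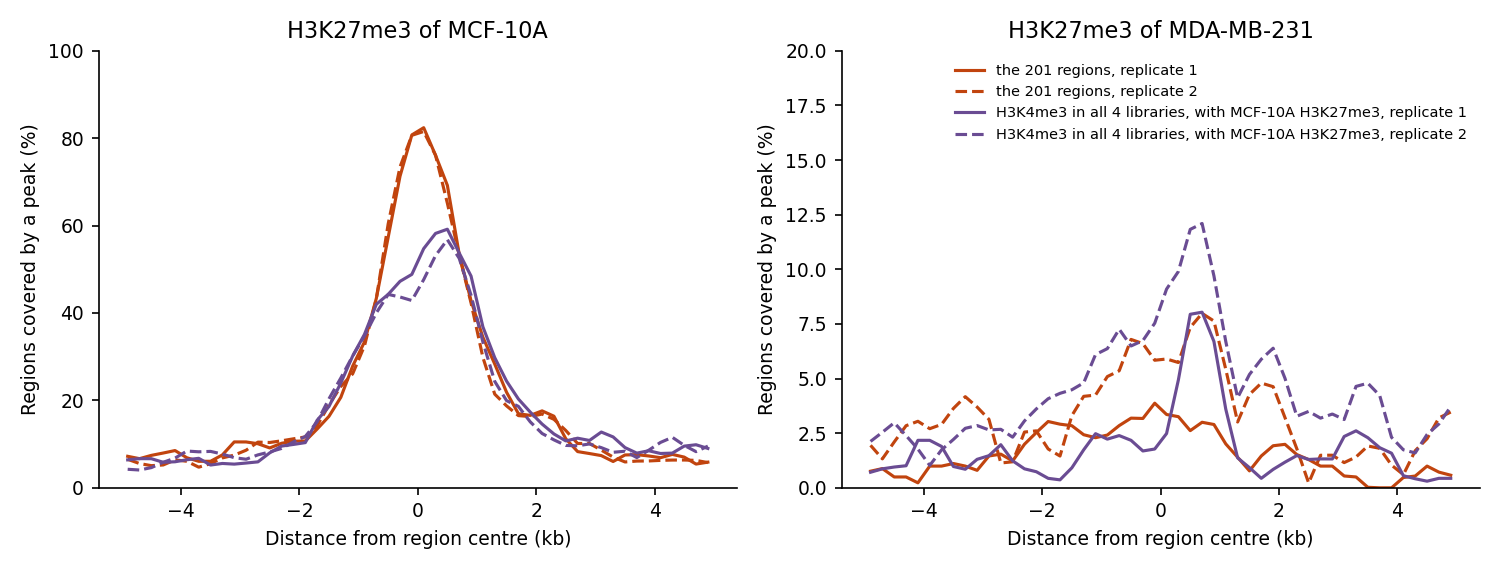
H3K27me3 peak cover (percent of regions, linear axes of different range) within 5 kb of the region centre, MCF-10A on the left and MDA-MB-231 on the right, with the 201 regions in red and the 230 regions with H3K4me3 in all 4 libraries on MCF-10A H3K27me3 in purple. In MCF-10A the red lines reach 82.4% and 81.5% near the centre, and the purple lines reach 59.2% and 56.8% at 500 bp.

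Away from the members the MCF-10A cover dropped quickly. H3K27me3 peaks of MCF-10A replicates 1 and 2 covered 71.5% and 70.1% of the bases inside the members, 22.6% and 22.6% of those up to 2 kb away, 5.63% and 5.31% from 2 to 10 kb, 3.03% and 2.80% from 10 to 50 kb, and 1.62% and 1.62% from 50 to 500 kb. In MDA-MB-231 replicates 1 and 2 the cover was 2.42% and 5.16% inside, 2.27% and 3.99% up to 2 kb, 0.633% and 1.80% from 2 to 10 kb, 0.493% and 1.30% from 10 to 50 kb, and 0.435% and 1.42% from 50 to 500 kb. Both MDA-MB-231 lists were thus lower than both MCF-10A lists at every distance. Inside the members the rule favoured this direction, since it required MCF-10A peaks there. The flanks hold no peak that the rule required, but they lie beside peaks chosen in MCF-10A, so they are not free of that choice. The tests on the flanks therefore cannot tell a difference between the lines from the choice. From 10 to 50 kb the means were 2.91 ± 0.162% in MCF-10A and 0.897 ± 0.572% in MDA-MB-231 (SD, n = 2), with p = 0.333 by a two-sided exact permutation test, the smallest p that 2 against 2 libraries allow (Benjamini-Hochberg p = 0.4 over 6 tests). From 50 to 500 kb they were 1.62 ± 0.00106% and 0.926 ± 0.695%, with the same p by the same exact test. Around the other MDA-MB-231-only regions the cover was 1.14% and 1.13% in MCF-10A and 0.383% and 1.13% in MDA-MB-231 from 10 to 50 kb. From 50 to 500 kb it was 1.23% and 1.203% against 0.467% and 1.35%, so there the lines overlapped.

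The lists differ in length, so the cover was also expressed per list. As a share of each list's own covered bases, H3K27me3 from 10 to 500 kb around the members held 13.0% and 12.9% in MCF-10A and 11.8% and 12.6% in MDA-MB-231. Every MCF-10A value exceeded every MDA-MB-231 value, and the difference of the means (MDA-MB-231 minus MCF-10A) was -0.720 percentage points, with p = 0.333 by the exact permutation test (Benjamini-Hochberg p = 0.4). The same limit holds here, since the MCF-10A lists were used by the rule. Within 10 kb the shares were 2.51% and 2.47% against 0.685% and 0.514%. The near window contains the MCF-10A peaks that the rule required, so a higher MCF-10A share there was largely set by the choice. It was not tested.

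In MDA-MB-231 few members carried an H3K27me3 peak. Peaks of MDA-MB-231 replicate 1 overlapped 11 members (5.47%, exact Clopper-Pearson 95% interval 2.76 to 9.58%), where 1.18% of all merged regions had one. Replicate 2, with the longer list, overlapped 29 members (14.4%, 9.88 to 20.1%), against 2.68% of all merged regions. Both replicates overlapped 9 members (4.48%, 2.07 to 8.33%), against 0.811% of all merged regions. The members' shares were thus above those of all merged regions, and 170 of 201 (84.6%) overlapped no H3K27me3 peak in either MDA-MB-231 replicate. These intervals treat regions as independent and cover counting error only.

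The 230 shared regions on MCF-10A H3K27me3 gave a comparison, since they met the same H3K27me3 condition. There 22 (9.57%) carried H3K27me3 in MDA-MB-231 replicate 1, 48 (20.9%) in replicate 2 and 17 (7.39%, 4.36 to 11.6%) in both. The members' shares were lower in each replicate, but the intervals overlapped, and the difference between the classes was not tested, because regions of 1 library are not replicates. Among the other MDA-MB-231-only regions the shares were lowest, with 9 of 884 in replicate 1, 17 in replicate 2 and 5 (0.566%) in both.

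The share with H3K27me3 in both MDA-MB-231 replicates depended on the short replicate 1 list and on the settings. Without MDA-MB-231 H3K27me3 replicate 1 it was 14.4%, and with peaks up to 5 kb away counted it was 13.4%. Other settings also changed which regions met the rule. With a score of at least 100 in every list the share was 0.730% of 137 members. With overlaps of at least 50% of the region it was 2.70% of 148 members.

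Values around single members differed between the lines in the same direction. H3K27me3 within 10 kb of a member had a median of 2140 bp in MCF-10A replicate 1 (range 400 to 14023 bp) and of 2026 bp in replicate 2 (393 to 13152 bp). In MDA-MB-231 the median was 0 bp in both replicates, and the highest values were 3518 and 13085 bp. An MDA-MB-231 replicate 1 peak lay within 10 kb of 35 members (17.4%) and a replicate 2 peak within 10 kb of 62 (30.9%). These shares were 22.6% and 41.3% for the 230 shared regions and 7.13% and 12.2% for the other MDA-MB-231-only regions, with the members between them. Both replicates had a peak that near at 32 members, and neither had one at 136 (67.7%). H3K27me3 within 10 kb was lower in both MDA-MB-231 replicates than in both MCF-10A replicates at 186 members (92.5%). The same held at 86.1% of the 230 shared regions and 11.5% of the other MDA-MB-231-only regions. The rule put MCF-10A peaks at every member and every one of the 230, so this direction was largely set for both.

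**Figure D3:**
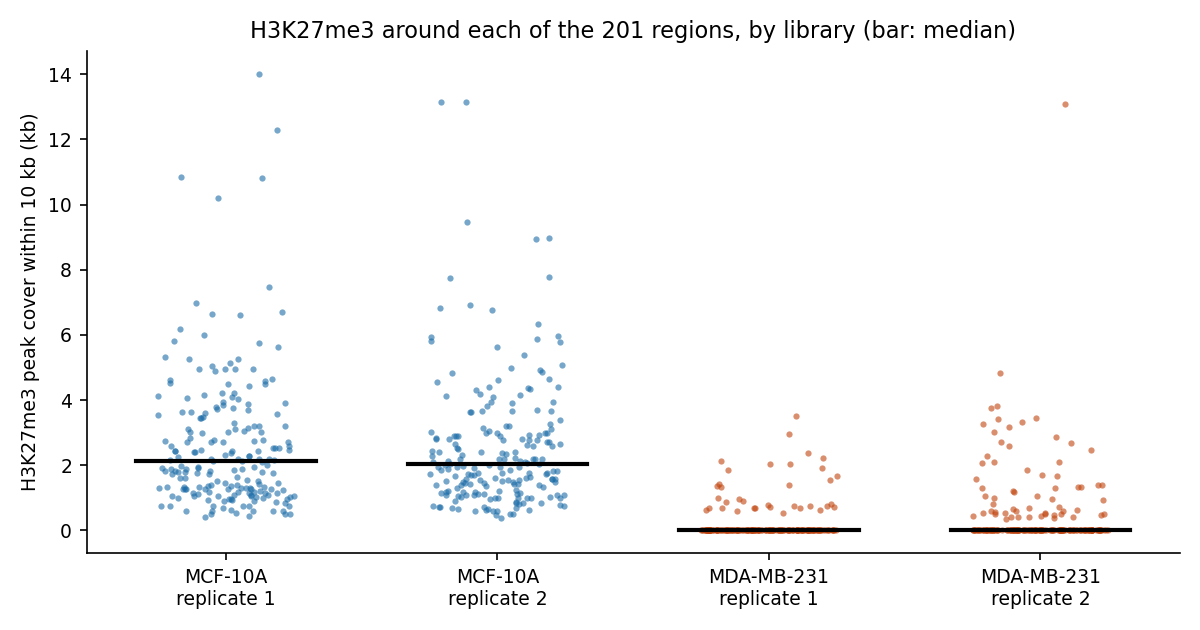
H3K27me3 peak cover within 10 kb of each of the 201 regions (kb, linear axis from 0), with 1 point per region in each of the 4 H3K27me3 libraries and a bar at the median. The MCF-10A medians are 2140 and 2026 bp, the MDA-MB-231 medians are 0 bp, and 1 region reaches 13085 bp in MDA-MB-231 replicate 2.

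The members with the most H3K27me3 around them in MCF-10A lay in wide tracts of the mark. The region at chr5:153857286-153857991 had 14023 and 13152 bp within 10 kb in MCF-10A replicates 1 and 2, and 1419 and 4830 bp in MDA-MB-231 replicates 1 and 2. At chr20:25037345-25039535 the values were 12296 and 13142 bp against 0 and 1296 bp. The next, chr17:46696219-46696993, held 10823 and 9454 bp, and chr6:99281556-99282300 held 10854 and 8978 bp, and neither had any H3K27me3 peak within 10 kb in MDA-MB-231. In all 4 regions both MDA-MB-231 values were below both MCF-10A values. The ranking used the MCF-10A values themselves, so this direction was largely set by the choice.

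Further down the same ranking the contrast was more varied. At chr19:42497763-42498521 the MCF-10A replicates held 10217 and 8954 bp and the MDA-MB-231 replicates 2033 and 1851 bp, all of it outside the region itself. At chr12:4382900-4384356 they held 7463 and 7741 bp against 733 and 2586 bp. The regions at chr16:214799-215172, chr11:8284107-8285162 and chr6:117591589-117592133 held 6330 to 6992 bp in the MCF-10A replicates and 0 to 701 bp in the MDA-MB-231 replicates. The tenth, chr3:50540427-50540922, held 4956 and 7771 bp in MCF-10A and 3518 and 13085 bp in MDA-MB-231, so the lines overlapped there. That region was the highest of all members in each MDA-MB-231 replicate.

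**Figure D4:**
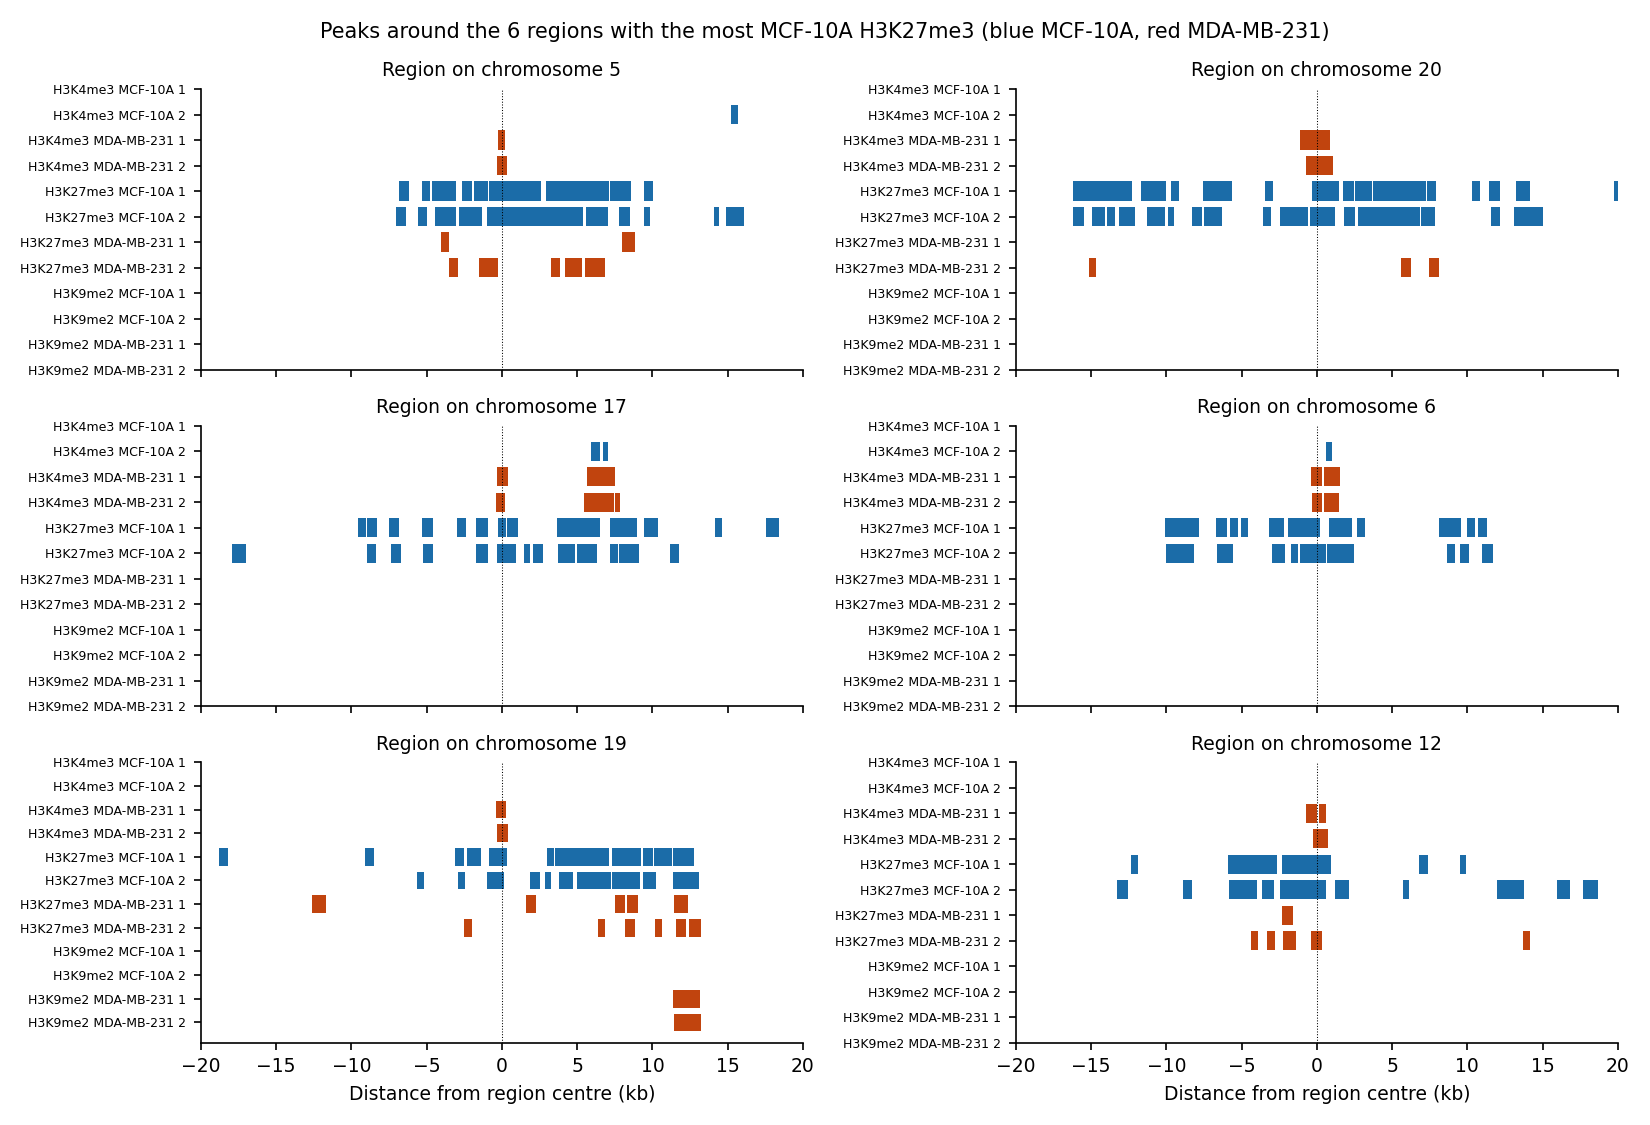
Peaks of all 12 libraries within 20 kb of the 6 regions with the most MCF-10A H3K27me3 (horizontal axis: distance from the region centre in kb), with MCF-10A in blue and MDA-MB-231 in red. Long runs of blue H3K27me3 peaks surround red H3K4me3 peaks at each centre, and the panels of chromosomes 17 and 6 hold no MDA-MB-231 H3K27me3 peak within 10 kb.

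A single member had more H3K27me3 within 10 kb in both MDA-MB-231 replicates than in both MCF-10A replicates. This was chr9:98783272-98784036, with 948 and 800 bp in MCF-10A and 1357 and 2278 bp in MDA-MB-231. It was picked out after its values were seen.

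The 9 members with H3K27me3 in both MDA-MB-231 replicates carried both marks in that line's own lists. In chr17:30592863-30593956, 886 and 816 bp of the region lay under H3K27me3 in replicates 1 and 2. In chr10:46970100-46971436 the values were 817 and 703 bp, in chr20:50720785-50722133 they were 693 and 491 bp, and in chr7:64600859-64601659 they were 607 and 615 bp. The region at chr3:43020530-43021248 held 580 and 719 bp, the latter being its whole length. In the remaining regions, chr12:94541694-94542904, chr14:60336901-60337580, chr11:64509804-64510865 and chr3:50540427-50540922, the overlap ran from 62 to 430 bp. Whether both marks sat on the same DNA molecules cannot be read from lists of separate immunoprecipitations.

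Where MDA-MB-231 had H3K27me3 on a member, it was mostly at the place where MCF-10A had it. All 12 replicate 1 peaks on members overlapped an H3K27me3 peak of MCF-10A, with 88.4% of their bases. Of the 32 replicate 2 peaks 31 did, with 93.2% of their bases. About 50.2% and 54.0% of the bases of these peaks lay on the members themselves. Since the members were chosen on MCF-10A peaks, most of such overlap follows from the choice.

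The 31 members with H3K27me3 in either MDA-MB-231 replicate had more of the mark around them in MCF-10A than the 170 without. Replicate 1 had a peak on 11 of the 31 and replicate 2 on 29, so this group rests mostly on replicate 2. The medians within 10 kb were 3128 and 2903 bp in MCF-10A replicates 1 and 2, against 1932 and 1954.5 bp. Their H3K4me3 in MDA-MB-231 ranked lower, at median percentiles of 17.0 and 20.4 in replicates 1 and 2, against 26.6 and 26.9. It was also shorter, at 761 and 924 bp within the region against 1028 and 954 bp, although in replicate 2 the medians were close. The groups are small and overlap widely, and none of these differences was tested.

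The comparison was next turned round, starting from the H3K27me3 of MCF-10A. Merging its peaks gave 11395 regions present in both MCF-10A replicates, of which 205 touched a member, 253 touched H3K4me3 present in all 4 libraries and 10595 touched no H3K4me3 peak in any library. Over all 11395, MDA-MB-231 replicate 1 had H3K27me3 at 13.4%, replicate 2 at 32.7% and both at 9.86%. At the 205 regions under members these shares were 10.2%, 17.6% (12.6 to 23.5%) and 7.81%. At the 253 shared ones they were 12.3%, 25.7% (20.4 to 31.5%) and 9.88%, and where no H3K4me3 was called they were 13.4%, 33.2% (32.3 to 34.1%) and 9.87%. In replicate 2 the share under members was thus below that of regions without H3K4me3, with intervals apart. In the shorter replicate 1 list and in both replicates together the members lay close to the background. The intervals treat regions of 1 library as independent and cover counting error only. Their separation is therefore not a test, and none was made.

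H3K27me3 regions under members were wider than those without H3K4me3, with medians of 1460 and 1053 bp, so the shares were also read by width. In MDA-MB-231 replicate 2 the share under members was 7.69% for regions under 1 kb, 12.1% from 1 to 1.5 kb, 14.9% from 1.5 to 2.5 kb and 45.5% at 2.5 kb or more. Without H3K4me3 it was 24.4%, 34.0%, 44.2% and 61.6%. In replicate 1 it was 2.56%, 6.06%, 8.96% and 30.3% under members, and 8.88%, 12.7%, 19.7% and 32.5% without H3K4me3. The share was lower under members than without H3K4me3 in all 4 width classes in both replicates. The intervals were apart in the 3 narrower classes of replicate 2. They overlapped in its widest class and in all 4 classes of replicate 1. All these intervals cover counting error only, and no test was made. The H3K27me3 regions under shared H3K4me3 were also below those without H3K4me3 in every width class of replicate 2, at 20.3%, 23.3%, 28.2% and 45%, with intervals apart from 1.5 to 2.5 kb. They lay above the members in the 3 narrower classes, with overlapping intervals, and next to them in the widest. In replicate 2 the lower share was thus not particular to the members. In replicate 1 the shared class stood at 4.35%, 13.95%, 12.8% and 30%. This was above the regions without H3K4me3 from 1 to 1.5 kb and below them in the other classes, with overlapping intervals throughout.

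**Figure D5:**
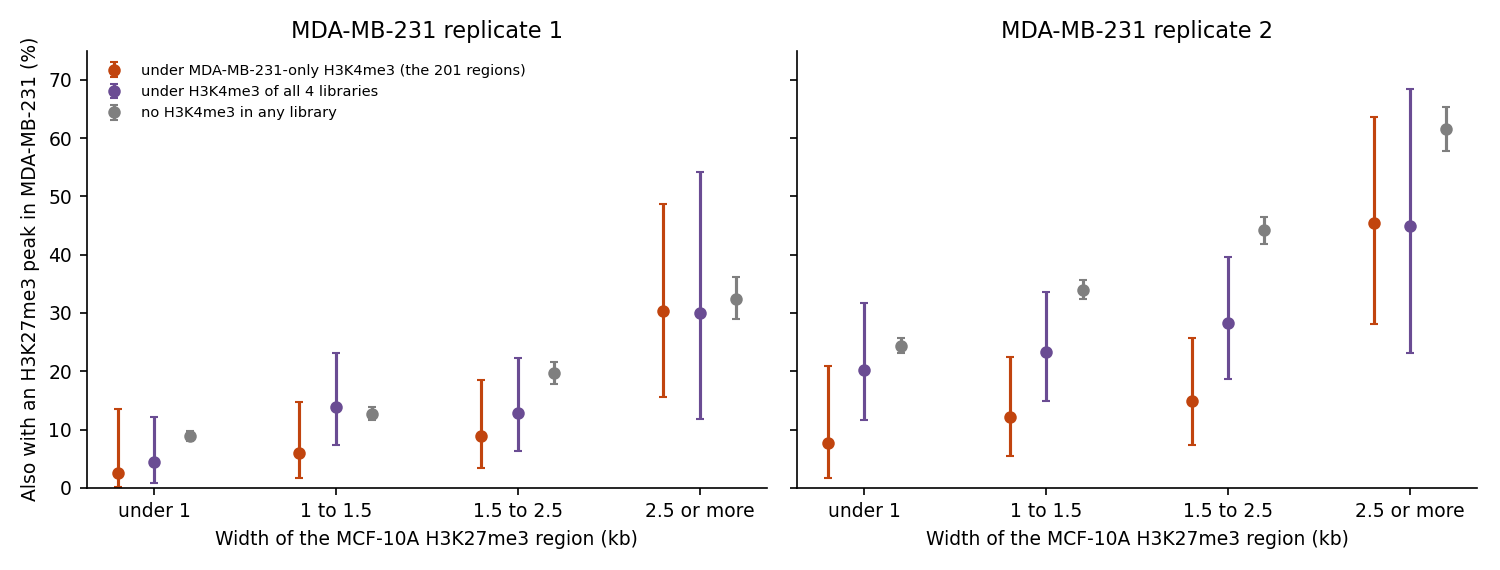
Share of MCF-10A H3K27me3 regions that also had an H3K27me3 peak in MDA-MB-231 (percent, linear axis from 0) by width of the MCF-10A region (kb), with MDA-MB-231 replicates 1 and 2 in separate panels and bars for exact 95% intervals that cover counting error only. In replicate 2 the red points (under the 201 regions) lie at 7.69%, 12.1% and 14.9% in the 3 narrower classes, below the grey points (no H3K4me3 in any library) at 24.4%, 34.0% and 44.2%, and the purple points (H3K4me3 in all 4 libraries) lie between them at 20.3%, 23.3% and 28.2%.

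The members with the most H3K4me3 were ranked by their mean bases under H3K4me3 peaks in MDA-MB-231 replicates 1 and 2. The first was chr16:65153995-65158046, with 4052 and 3380 bp, followed by chr5:83677818-83681532 with 3681 and 3489 bp and chr20:22562400-22566221 with 3213 and 3822 bp. In the first of these H3K27me3 of MCF-10A covered 2784 and 2584 bp, in the second 2416 and 1618 bp, and in the third 594 and 625 bp. The third was also the single one of the 10 highest-ranked with any MDA-MB-231 H3K27me3 within 10 kb, at 0 bp in replicate 1 and 2112 bp in replicate 2.

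Of the others, chr7:121943527-121946545 held 2782 and 2900 bp of H3K4me3, chr2:171570219-171573225 held 2655 and 3007 bp, and chr20:57088984-57091581 held 2598 and 2413 bp. The regions at chr7:82071700-82074162, chr2:112655289-112657694, chr7:79081293-79083610 and chr7:128469922-128472215 held 1859 to 2463 bp per replicate. Chromosome 7 thus held 4 of the 10. None of these 10 was among the 10 members with the most MCF-10A H3K27me3 around them.

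H3K9me2 was found on few members. In MCF-10A it overlapped 3 members (1.49%) in replicate 1 and 1 (0.498%) in replicate 2, where 2.18% and 1.7% of all merged regions had it. In MDA-MB-231 it overlapped none in either replicate, where 0.38% and 0.362% of all merged regions had it. At 0 of 201 the exact Clopper-Pearson interval allows a share of up to 1.82%. The mean share was 0.995 ± 0.704% in MCF-10A and 0% in both MDA-MB-231 replicates (SD, n = 2), a difference of -0.995 percentage points, with p = 0.333 by the two-sided exact permutation test (Benjamini-Hochberg p = 0.4 over 6 tests). The H3K9me2 counts are too small to set the members apart from all merged regions.

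The member with H3K9me2 in both MCF-10A replicates (1.35% of all merged regions had it in both there, and 0.265% in both MDA-MB-231 replicates) was chr13:78492533-78493994, with 738 and 863 bp of the region covered. In replicate 1 alone the mark covered 744 bp of chr7:116964102-116964895 and 2468 bp of chr7:121943527-121946545. None of these had H3K27me3 in MDA-MB-231 within 10 kb.

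Around the members H3K9me2 gave no clear difference between the lines. As a share of each list's covered bases, 0.243% and 0.246% lay within 10 kb in MCF-10A and 0.239% and 0.339% in MDA-MB-231 (exact permutation p = 1). From 10 to 500 kb the shares were 8.29% and 8.004% in MCF-10A and 9.66% and 10.5% in MDA-MB-231, with every MDA-MB-231 value above every MCF-10A value (exact permutation p = 0.333, Benjamini-Hochberg p = 0.4).

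Most members lay far from any H3K4me3 of MCF-10A. The nearest H3K4me3 peak of either MCF-10A replicate was at a median of 55906 bp, against 34110.5 bp for the other MDA-MB-231-only regions. It was under 2 kb away at 11 members (5.47%) and at 98 of the other 884 regions (11.1%), and 100 kb or more away at 63 (31.3%) and 226 (25.6%). Among the regions named above it was 243 bp at chr6:99281556-99282300, 581 bp at chr16:65153995-65158046 and 5508 bp at chr17:46696219-46696993, each time in replicate 2. In replicate 1 the nearest peaks to these regions were 112300, 1282377 and 33289 bp away. At chr5:83677818-83681532 the nearest peak of either replicate was 907106 bp away, the largest such distance of all members.

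The members were spread over all 22 chromosomes and seldom clustered. With gaps of up to 100 kb joined, 185 stood alone and 16 formed 8 pairs, and there was no run of 3. The closest pair, chr7:149744390-149744959 and chr7:149744974-149746222, was separated by 14 bp. Another pair on chromosome 20, chr20:22557886-22559386 and chr20:22562400-22566221, lay 3013 bp apart, and the remaining 6 pairs had gaps of 27559 to 96884 bp.

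By chromosome, the largest numbers were 19 on chromosome 1 and 16 on chromosome 17. As a share of the MDA-MB-231-only regions of a chromosome, members made up 10 of 33 on chromosome 20 (30.3%, exact 95% interval 15.6 to 48.7%) and 14 of 51 on chromosome 11 (27.5%), against 18.5% over all. Chromosome 19 held the most MDA-MB-231-only regions, 120, of which 13 (10.8%, 5.90 to 17.8%) were members. Numbers this small leave wide intervals, and the copy number of these chromosomes in each line was not measured here.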

How the data were processed

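The authors' deposited files used here are 12 per-replicate peak lists that give positions and, for every peak, a score. This deposited score has a scale not given in the sources used here, and it was used for ranks and thresholds inside 1 list only. The build is hg19, and the tools are MACS 1.4, Bowtie2, CASAVA 1.6 and bedtools, per the submitters' processing notes, which give no roles or settings. Per the labels' protocols reads were paired-end, and replicates were also combined, but the lists used here are per replicate. Peaks off chromosomes 1 to 22, 1.00% to 3.97% of a list, were left out. Positions count from 1.

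Peaks were merged and overlapped with a minimum of 1 bp in Python 3.11.15 (NumPy 2.4.6, pandas 2.3.3, SciPy 1.17.1, matplotlib 3.10.9). These steps were tested on simulated data. Line differences were tested over the 2 against 2 libraries of a mark with two-sided exact permutation tests, adjusted by Benjamini-Hochberg over 6 tests, and whether replicates came from separate cultures is known only from the word biological in the labels. Intervals are exact Clopper-Pearson intervals at 95%. Regions are not replicates, and shares of regions carry no p-value.

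Regions were named by rule: the 10 members with most MCF-10A H3K27me3 within 10 kb, the 10 with most H3K4me3, those with H3K27me3 in both MDA-MB-231 replicates or H3K9me2 in both replicates of a line, and those nearest the overlap threshold. Pairs were added as examples, as were the regions with H3K9me2 in 1 replicate and the region on chromosome 9. The members, lists and alternatives were chosen with earlier results of these data known. Alternatives were a score of at least 100, 50% overlap, joining across 1 kb, chromosome X, equal list lengths, a 5 kb window, the replicate block and each library left out.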

Additional observations from a re-analysis of the deposited data

How the results depend on the processing

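The number of members stayed within 1.5 times of 201 in all alternatives tried, at 137 to 204 over the 5 other settings and 208 to 278 without each of 6 libraries in turn. Leaving out a library drops a condition of the rule, so these higher counts do not measure stability. Here and below, only libraries that enter a result were left out. The rule was applied anew under each setting, so the members could change with it. The share of members with H3K27me3 in both MDA-MB-231 replicates, 4.48%, was 0.730% with a score of at least 100, 2.70% with 50% overlap, 5.16% with equal list lengths and 13.4% with peaks within 5 kb counted. Leaving out 1 library at a time it ran from 3.73% to 14.4%, the latter without MDA-MB-231 H3K27me3 replicate 1, which leaves the longer replicate 2 list alone. The difference in median width, 235.5 bp, was 264.5 bp with that score, 162.5 bp with 50% overlap, 202 bp with peaks joined across 1 kb, 198 bp with equal list lengths and 209.5 to 291.0 bp without each library in turn. It was positive in every one of these, and the cause of the shifts was not tested. The H3K9me2 difference was -1.741 to 0 percentage points over the other settings, with 0 at a score of at least 100, and -1.49 to -0.4 without each library in turn, and no p-value could fall below 0.333 in any of these. With the replicate number as a block it was -0.995 with an exact permutation p of 0.5, and the labels do not say that a number pairs samples. The share at annotated gene starts was not run, because no hg19 annotation was used here. Unknown depth, 2 replicates per group and the short MDA-MB-231 H3K27me3 list limit all comparisons, and absence of a peak is not absence of the mark.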

Other observations

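The opposite class was smaller. Of 997 regions with H3K4me3 in both MCF-10A and neither MDA-MB-231 replicate, 33 (3.31%) lay on H3K27me3 of both MDA-MB-231 replicates, against 18.5% for the members among the MDA-MB-231-only regions. Over all merged regions these shares were 0.811% for H3K27me3 of both MDA-MB-231 replicates and 4.22% for that of both MCF-10A replicates. Both classes thus lay above their own background, and the backgrounds differed in the same direction as the classes. The short MDA-MB-231 replicate 1 list bounds the count of 33, since replicate 2 alone overlapped 107 (10.7%), where 2.68% of all merged regions had it. The difference between the classes was not tested.

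Across the 201 members, H3K27me3 bases within 10 kb in MCF-10A replicates 1 and 2 correlated at r = 0.91 (Spearman's rho 0.83), and H3K4me3 bases in the region in MDA-MB-231 replicates 1 and 2 at r = 0.92 (rho 0.85). The next values use the mean of the 2 replicates of a line. The amount of H3K27me3 within 10 kb in MCF-10A and of H3K4me3 in the region in MDA-MB-231 had r = -0.05 (rho -0.07). H3K27me3 within 10 kb in both lines had r = 0.39 (rho 0.33). These are descriptions over regions of the same libraries, which share their list lengths, and carry no p-value.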
